A study of Saccharomyces cerevisiae W303 with 9 samples.

Results

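The genes RPL1A to RPL33B encode proteins of the large (60S) subunit of the cytosolic ribosome of budding yeast. They were taken by their systematic names from the deposited count table, both paralogs of a family included, which gave 58 genes of the 7127 features listed. All 58 passed the filter on low counts, among 5970 features tested. The 58 genes form 33 families, of which 25 have a pair of paralogs named A and B and 8 have a single copy (RPL3, RPL5, RPL10, RPL25, RPL28, RPL29, RPL30 and RPL32). Other ribosomal proteins of the large subunit, RPL34A onward, are used here only for comparison.

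The libraries came from 3 strains of the W303 background, with 3 isolates each, grown in YPD, a rich glucose medium, to mid-log phase at an OD600 between 0.4 and 0.6. The construct strain carries a deletion of AIM29 together with pmTDH3-ZPR1, named after the highly expressed glyceraldehyde-3-phosphate dehydrogenase gene TDH3 and the gene ZPR1. The deletion strain carries the AIM29 deletion alone, and the wild type carries neither change, so that the construct strain and the deletion strain share the loss of AIM29. Poly(A) RNA was sequenced, and reads were counted per annotated feature. A culture is a mixture of cells, so a change in the share of cells that transcribe a gene and a change in RNA per cell cannot be told apart. The labels give isolates of a strain and do not say how they were obtained, so the p-values measure the spread between isolates.

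Ribosomal protein genes of yeast are transcribed at high levels in growing cells and are regulated together, through the DNA-binding factor Rap1 and the activators Fhl1 and Ifh1, in response to nutrients and growth rate. Most are duplicated, a remnant of an ancient genome duplication, and many carry introns although introns are rare in this organism. Newly made ribosomal proteins are carried to the nucleolus, several by dedicated chaperones, and are built into the subunit with the ribosomal RNA. Zpr1 is known as a folding chaperone of the elongation factor eEF1A, which brings aminoacyl-tRNA to the finished ribosome, and Aim29 as its partner.

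Total counts ran between 18044486 and 20140071 in the construct strain, 14380639 and 14586083 in the deletion strain and 15601784 and 17140665 in the wild type, ranges that do not overlap. Values are given as CPM, read counts relative to a library size that is scaled for composition. AIM29 averaged 6.56 CPM in the construct strain, 2.76 CPM in the deletion strain and 78.4 CPM in the wild type, in the direction of the labels. ZPR1 averaged 5380.4 CPM in the construct strain, 422 CPM in the deletion strain and 329 CPM in the wild type. The high level in the construct strain again follows the labels. ZPR1 was also higher in the deletion strain than in the wild type without overlap, a change that the labels do not name. It was 1.28-fold, a log2 fold change of 0.36 ± 0.07 (SE), with an adjusted p of 0.0121 by edgeR's quasi-likelihood test (Benjamini-Hochberg adjusted). The libraries of the construct strain varied most, with a biological coefficient of variation of 14.8%, against 3.76% among the deletion libraries and 5.22% among the wild-type libraries.

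The sequences below belong to members that the results turn on. The first set is a stretch of 150 bases from upstream of the 3 genes that were called, RPL23B, RPL27A and RPL29. RPL1B, which was not called with all libraries, is added. The stretches are printed in the direction of transcription and read from the R64 reference genome by the coordinates of its annotation. Capitals mark matches, on either strand, to CCNTACA (a core of Rap1 sites), GACGC (a core of Fhl1 sites) and TTCNNGAANNTTC (3 alternating units of a heat shock element, bound by Hsf1). The heat shock letters were searched after results of these data were known. Each stretch was placed to include a match to these letters or, where there was none, to CCNTACA. That each stretch holds a match therefore follows from the choice, and none of them reaches the start codon.

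RPL23B (chrV:396333-396482, plus strand): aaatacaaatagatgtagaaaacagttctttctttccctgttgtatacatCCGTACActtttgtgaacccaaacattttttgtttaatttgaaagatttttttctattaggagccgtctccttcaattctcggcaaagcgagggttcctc
RPL27A (chrVIII:126056-126205, plus strand): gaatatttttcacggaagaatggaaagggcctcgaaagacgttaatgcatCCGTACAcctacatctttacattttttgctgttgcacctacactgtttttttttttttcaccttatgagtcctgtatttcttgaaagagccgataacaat
RPL29 (chrVI:223512-223661, minus strand): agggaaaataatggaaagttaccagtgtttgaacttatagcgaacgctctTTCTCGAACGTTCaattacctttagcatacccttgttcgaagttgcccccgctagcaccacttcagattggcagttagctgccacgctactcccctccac
RPL1B (chrVII:254431-254580, plus strand): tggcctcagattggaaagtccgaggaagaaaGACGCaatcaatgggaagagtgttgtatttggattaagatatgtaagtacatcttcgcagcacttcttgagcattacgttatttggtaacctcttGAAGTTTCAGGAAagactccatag

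RPL23B and RPL27A hold a match to CCNTACA, with its first base at −386 and −415 from the start codon, and so do RPL23A (−251) and RPL1B (−309, outside the bases printed), which were not called with all libraries. RPL29, which was called, and RPL1B, which was not, hold the heat shock letters, first base at −174 and −84. In the 500 bases before the start codon, on both strands, CCNTACA was found in 32 of the 58 genes (55.2%) and in 15.9% of 6000 genes. GACGC was found in 25 of 58 (43.1%) and in 30.4% of the 6000, and TTCNNGAANNTTC in 2 of 58 (3.45%, RPL29 and RPL1B) and in 1.48%. A match is a stretch of letters, and no binding was measured here.

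The second set is the last 90 coding bases of 3 families, with capitals at the bases that differ between the paralogs. In these bases RPL23A and RPL23B differ at 7 positions, RPL27A and RPL27B at 10 and RPL1A and RPL1B at 0.

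RPL23A (chrII:59822-59911, minus strand): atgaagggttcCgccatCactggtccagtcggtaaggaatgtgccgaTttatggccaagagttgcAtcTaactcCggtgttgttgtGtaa
RPL23B (chrV:397564-397653, plus strand): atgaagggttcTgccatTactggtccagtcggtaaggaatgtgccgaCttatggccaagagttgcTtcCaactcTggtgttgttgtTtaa
RPL27A (chrVIII:127403-127492, plus strand): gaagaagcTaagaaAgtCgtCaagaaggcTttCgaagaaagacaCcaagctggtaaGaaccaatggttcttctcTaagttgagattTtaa
RPL27B (chrIV:1402475-1402564, plus strand): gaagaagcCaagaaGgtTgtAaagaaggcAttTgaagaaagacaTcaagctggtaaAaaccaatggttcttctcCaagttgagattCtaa
RPL1A (chrXVI:136354-136443, plus strand): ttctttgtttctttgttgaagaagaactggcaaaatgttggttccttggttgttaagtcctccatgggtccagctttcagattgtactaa
RPL1B (chrVII:255205-255294, plus strand): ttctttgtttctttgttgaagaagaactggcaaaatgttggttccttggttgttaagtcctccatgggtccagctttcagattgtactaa

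As a measure of reads that paralogs share, 50-base windows within coding exons were searched in the whole genome. All windows were unique in 22 of the 58 genes, among them RPL27A, RPL27B, RPL22A, RPL22B and RPL29. In RPL23A and RPL23B 84.8% were unique. In 8 genes fewer than 50% were, namely RPL1A and RPL1B (19.0%), RPL4A and RPL4B (27.3%), RPL7A and RPL7B (37.7%) and RPL11A and RPL11B (39.1%). How reads with several equal matches were counted is not given in the sources used here, so the separate values of these 8 genes are uncertain. Introns interrupt 37 of the 58 genes, with 2 introns each in RPL7A and RPL7B, and 21 genes have none.

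Together the 58 genes held 8.66, 7.83 and 7.93% of all counts in the construct strain (mean 8.14 ± 0.453%, SD, n = 3), 8.50, 8.56 and 8.53% in the deletion strain (8.53 ± 0.0310%) and 8.36, 8.39 and 8.31% in the wild type (8.35 ± 0.0395%). The deletion libraries lay above the wild-type libraries without overlap, and the construct libraries spread on both sides of them. Per kilobase of coding length, the highest mean levels over the 9 libraries were those of RPL32 (6807 CPM per kb), RPL3 (6096) and RPL27A (5723). Rpl3 is a large protein that reaches toward the peptidyl transferase centre, where peptide bonds form. The lowest levels were those of RPL33A (31.0 CPM per kb), RPL22A (35.9) and RPL15B (69.5), followed by RPL12B (88.3) and RPL28 (183). A single-copy gene for an essential protein, RPL28 thus stood at a small part of the level of RPL32.

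The low end of this order coincided with reading frames on the opposite strand. Open reading frames of at least 80 codons on the other strand cover more than 80% of the coding bases of 6 genes, namely RPL8B (100%), RPL22A (96.7%), RPL12B (89.8%), RPL28 (89.1%), RPL33A (88.0%) and RPL10 (85.3%). By level per kb these 6 genes ranked between 49 and 58 among the 58. Of the other genes, 40 have no such frame. RPL3 has 74.2% of its coding bases under such a frame and ranked 2, and RPL15B, with 52.7%, ranked 56. The count table also lists features next to or across these genes by systematic number, such as YLR062C beside RPL22A and YPL142C beside RPL33A, which held between 5 and 24 and between 1 and 13 counts per library. Whether the counting used strand is not given in the sources used here, and the part of such overlaps in the low levels was not tested. Levels of these 6 genes are therefore uncertain, and so are those of genes partly under such a frame.

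**Figure D1:**
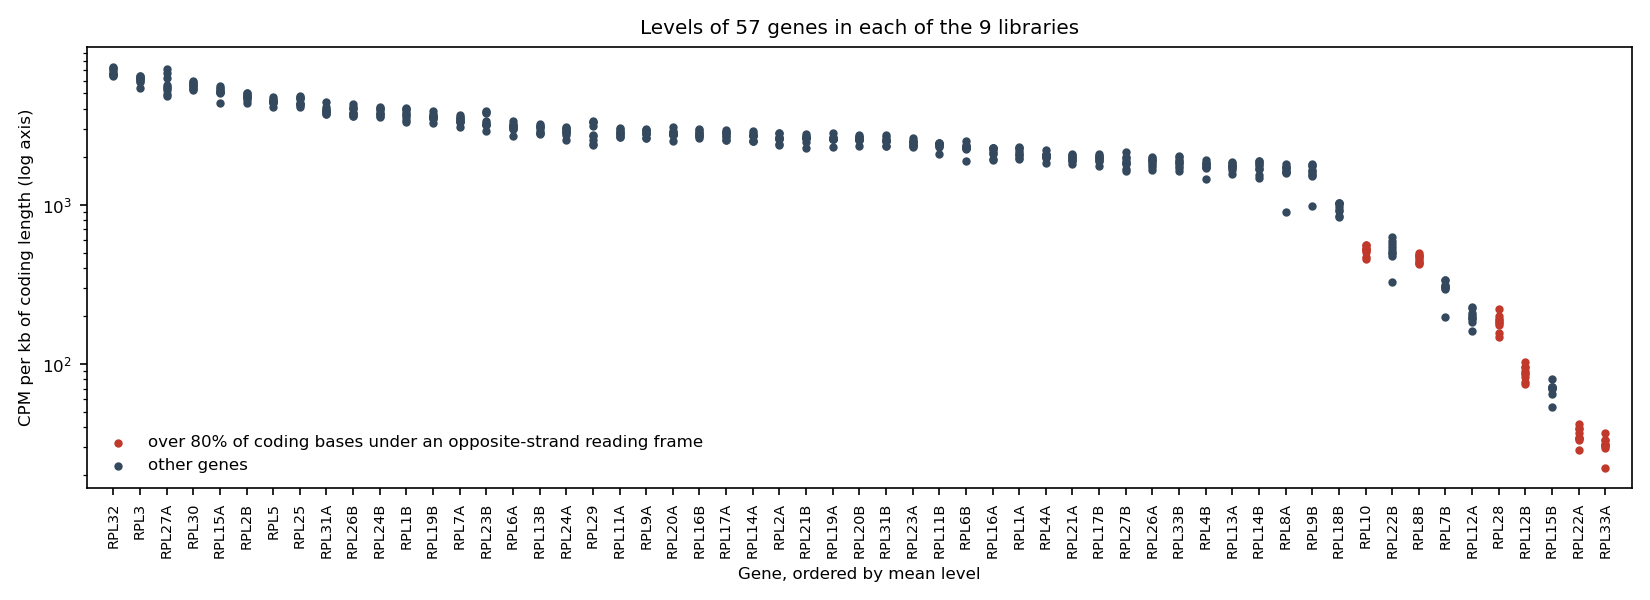
CPM per kb of coding length (log axis) of 57 of the 58 genes, ordered by mean level, with a point for each of the 9 libraries; red points mark the 6 genes with more than 80% of coding bases under an opposite-strand reading frame. RPL32, at a mean of 6807 CPM per kb, is at the left end and RPL33A, at 31.0, at the right, and the red genes all lie among the lowest 10.

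Setting the deletion strain against the wild type shows these transcripts with and without AIM29. They were slightly higher as a group, and RPL27A, RPL29 and RPL23B were called higher. The 58 log2 fold changes ran between −0.17 and 0.38 with a median of 0.07, and 55 of them were above 0, while the median over all 5970 features was 0.00. With an adjusted p under 0.05 as the threshold (edgeR's quasi-likelihood test, Benjamini-Hochberg), 3 of the 58 genes rose and 0 fell where 4.24% of all tested features rose and 2.16% fell. DESeq2 also called 3 and 0 of the 58 genes (6.11% and 3.89% of all features). At an unadjusted p under 0.05, 10 genes were higher and 0 lower, where 11.7% and 10.1% of all features were. At the adjusted threshold the share of the 58 genes called was close to that of all features, while the unadjusted calls were all on the higher side. In 33 of the 58 genes (56.9%) every deletion library lay above every wild-type library, where this held for 21.1% of all features, and in 1 gene, RPL18B, every one lay below (background 19.2%).

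RPL27A (YHR010W, chrVIII:126521-127492, plus strand, build R64, 1 intron), the more abundant of the genes for Rpl27, had 2145, 2321 and 1969 CPM in the construct strain, 2547, 2926 and 2748 CPM in the deletion strain and 2034, 2249 and 2229 CPM in the wild type. All 3 deletion libraries were above every other library. The gene was 1.26-fold higher in the deletion strain than in the wild type, a log2 fold change of 0.34 ± 0.08 (SE), with an adjusted p of 0.0255 by edgeR's quasi-likelihood test (Benjamini-Hochberg adjusted). Its paralog RPL27B (YDR471W, chrIV:1401770-1402564, plus strand) had 777, 673 and 684 CPM in the construct strain, 809, 874 and 823 CPM in the deletion strain and 749, 735 and 748 CPM in the wild type. The deletion libraries again lay highest, with a smaller fold change of 0.17 ± 0.06 and an adjusted p of 0.143 in the same edgeR test.

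RPL29 (YFR032C-A, chrVI:223258-223437, minus strand, no intron) encodes a small protein of the subunit that cells can live without. It had 487, 563 and 431 CPM in the construct strain, 592, 598 and 604 CPM in the deletion strain and 426, 495 and 458 CPM in the wild type. The 3 deletion values lay close together and above the rest, and the construct and wild-type libraries overlapped. The log2 fold change was 0.38 ± 0.09 (SE), 1.30-fold, with an adjusted p of 0.0323 (edgeR, Benjamini-Hochberg). RPL29 and RPL27A showed the largest fold changes of the 58 genes in this comparison.

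RPL23B (YER117W, chrV:396769-397653, plus strand, 1 intron) encodes Rpl23, which lies on the face of the subunit that meets the small subunit and is carried by the chaperone Bcp1. It had 1335, 1317 and 1198 CPM in the construct strain, 1549, 1610.4 and 1581 CPM in the deletion strain and 1311, 1388 and 1341 CPM in the wild type. The deletion libraries did not overlap the others, and the log2 fold change was 0.23 ± 0.06 (SE) with an adjusted p of 0.0334 (edgeR, Benjamini-Hochberg). Its paralog RPL23A (YBL087C, chrII:59822-60739, minus strand) had 1078, 956 and 982 CPM in the construct strain, 1039, 1016 and 1046 CPM in the deletion strain and 972, 1018 and 978 CPM in the wild type. Here the groups overlapped, and the fold change from the wild type was 0.06 ± 0.06 with an adjusted p of 0.56 in that test.

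**Figure D2:**
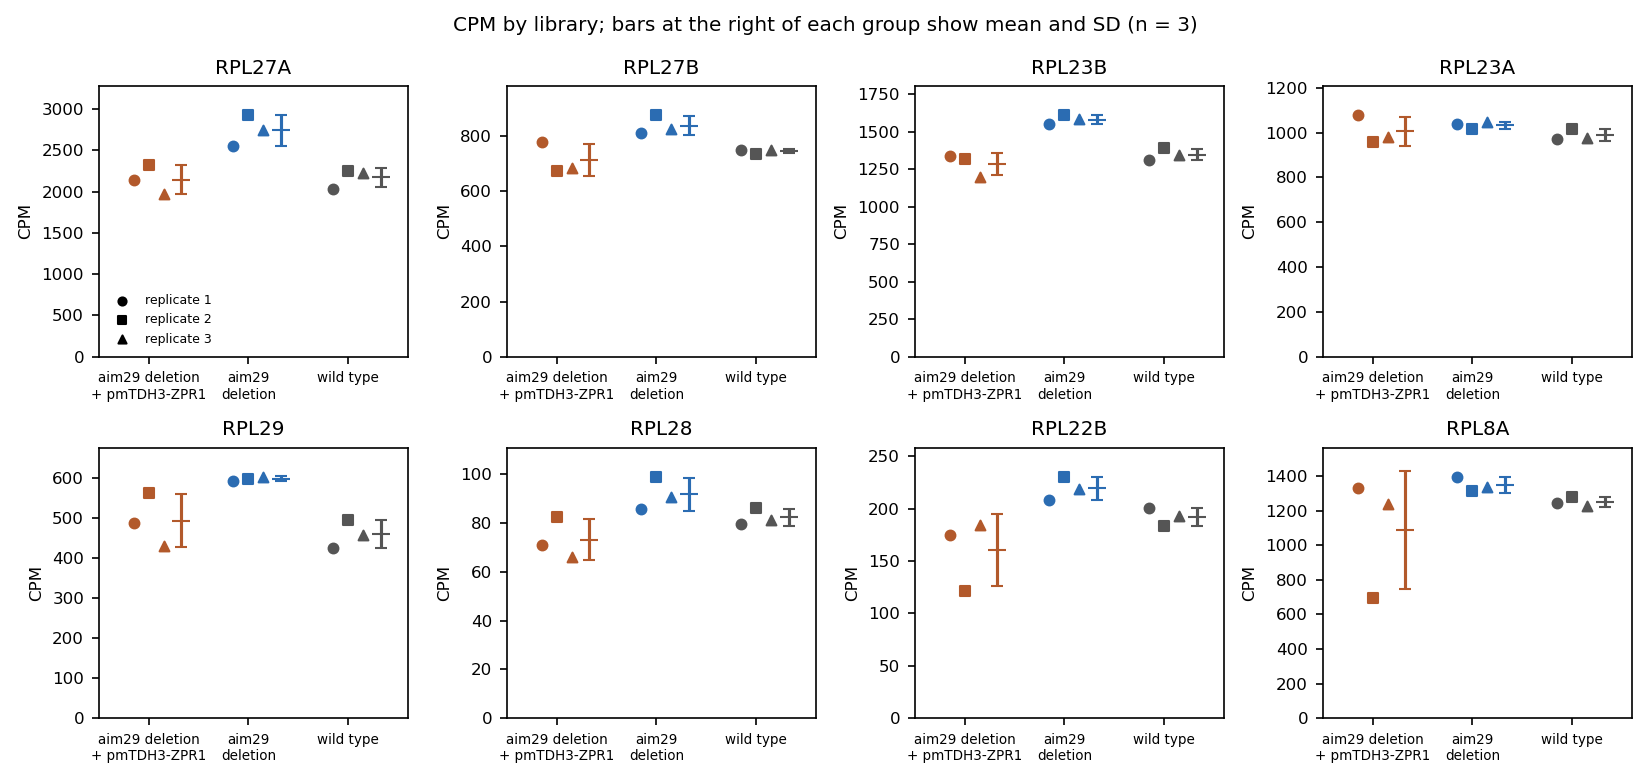
CPM of 8 genes in each library, from 0, with the construct strain left, the deletion strain in the middle and the wild type at the right of each panel; symbols mark the replicate and the bars at the right of each group the mean and SD (n = 3). RPL27A, RPL23B and RPL29 are highest in the 3 deletion libraries, and RPL22B and RPL8A are lowest in replicate 2 of the construct strain, at 121 and 695 CPM.

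Among genes that were not called, RPL12B, for a protein at the base of the ribosomal stalk, had a log2 fold change of 0.25 ± 0.10 (SE) and an adjusted p of 0.163 by edgeR's quasi-likelihood test. It had 47.8, 41.3 and 42.9 CPM in the construct strain, 51.4, 43.9 and 47.9 CPM in the deletion strain and 37.3, 45.0 and 38.4 CPM in the wild type, and its deletion and wild-type libraries overlapped. The gene for Rpl25, a protein at the exit of the peptide tunnel, RPL25, had 0.16 ± 0.06 with an adjusted p of 0.131 in the same test and no overlap between these groups. The values below 0 were those of RPL15B (−0.17 ± 0.11), RPL18B (−0.12 ± 0.07) and RPL13A (−0.01 ± 0.07).

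The 3 calls depended on the libraries and the fit. Without wild-type replicate 1, wild-type replicate 3, deletion replicate 2 or deletion replicate 3, 0 genes were called, and without wild-type replicate 2 or deletion replicate 1 the call that remained was that of RPL29 or of RPL27A (background between 2.03% and 2.59% in these 6 fits). Without construct replicate 1, whose group shares the estimate of the spread, 5 genes rose, RPL25 and RPL27B added (background 5.28%). Without construct replicate 2, 4 genes rose, RPL9B added at 0.20 ± 0.04 with an adjusted p of 0.0118 by edgeR's quasi-likelihood test (background 6.62%), and without construct replicate 3 the same 3 genes rose as in the full set (background 9.6%). In a fit of the deletion and wild-type libraries alone, whose spread was smaller, 21 of the 58 genes rose and 1, RPL18B, fell, where 14.1% of all features rose and 12.7% fell. With limma-voom and quality weights that differ by group, added after seeing the data, 15 rose and RPL18B fell, where 12.7% of all features rose and 11.3% fell. Without composition factors 0 genes rose (background 3.13%), with adjusted p of 0.0628 for RPL27A, 0.0743 for RPL29 and 0.0806 for RPL23B by edgeR's quasi-likelihood test. In that fit the median of the 58 genes was 0.021, against −0.05 for all features.

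**Figure D3:**
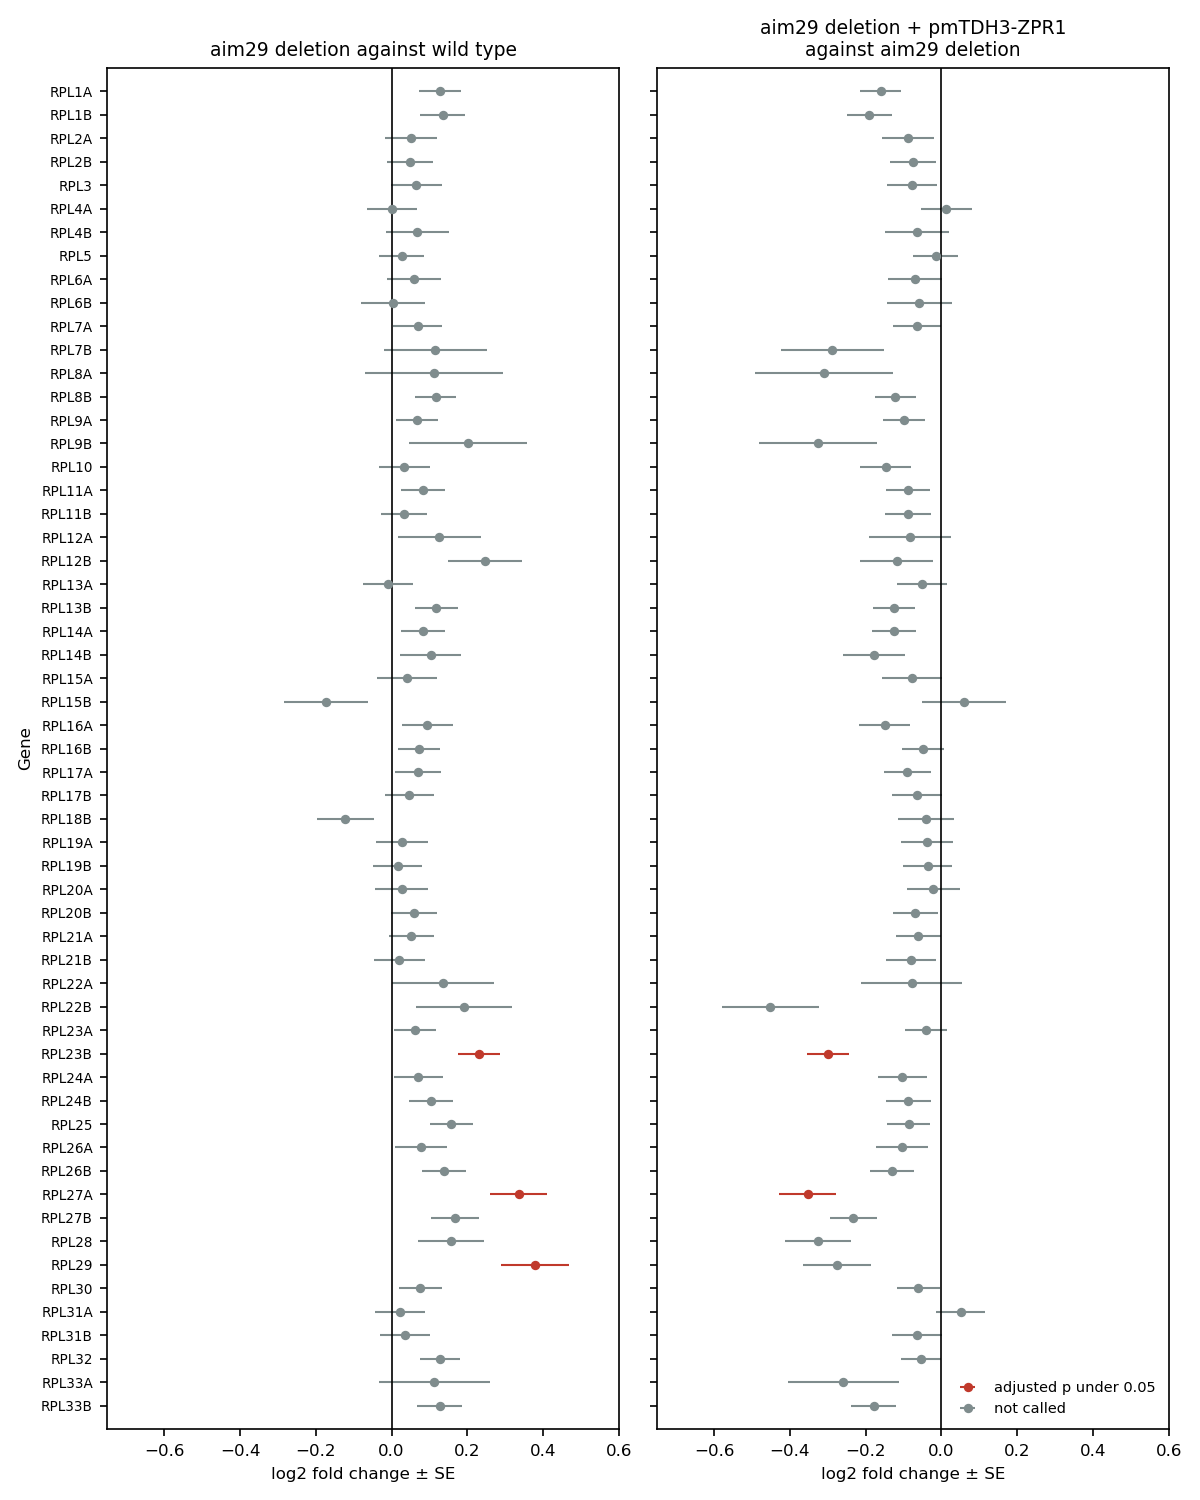
Log2 fold change of 57 of the 58 genes with its SE, for the deletion strain against the wild type (left) and the construct strain against the deletion strain (right), with genes called at an adjusted p under 0.05 in red. On the left 54 of 57 points lie above 0, with RPL23B, RPL27A and RPL29 called, and on the right 54 lie below 0, with RPL23B and RPL27A called.

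Setting the construct strain against the deletion strain shows the same transcripts with and without pmTDH3-ZPR1 in cells that lack AIM29. RPL23B and RPL27A fell, and most of the 58 genes had log2 fold changes below 0 whose size depended on the construct library. The log2 fold changes ran between −0.45 and 0.06 with a median of −0.09, and 55 of 58 were below 0, against a median of 0.00 over all features. The median of the 58 genes was −0.16 without construct replicate 1 and −0.043 without construct replicate 2. By edgeR's quasi-likelihood test (Benjamini-Hochberg adjusted), 2 genes fell and 0 rose, where 3.72% of all features fell and 1.66% rose. DESeq2 called 5 lower and 0 higher (5.25% and 3.31% of all features). At an unadjusted p under 0.05, 13 were lower and 0 higher, where 11.7% and 10.8% of all features were. In 12 of the 58 genes (20.7%) all construct libraries lay below all deletion libraries (background 13.5%). This comparison shares the deletion libraries with the one above, so the values of a gene in both are not independent.

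The log2 fold changes of the construct strain from the deletion strain were −0.30 ± 0.06 (SE) for RPL23B, with an adjusted p of 0.00978, and −0.35 ± 0.08 for RPL27A, with an adjusted p of 0.0219, both by edgeR's quasi-likelihood test (Benjamini-Hochberg adjusted). In both genes the CPM of the construct libraries overlapped those of the wild type. Close to the threshold were RPL28 (−0.33 ± 0.09, adjusted p = 0.0589), RPL27B (−0.23 ± 0.06, adjusted p = 0.0597) and RPL22B (−0.45 ± 0.13, adjusted p = 0.0713), which DESeq2 did call. RPL28 encodes a protein close to the peptidyl transferase centre and had 70.8, 82.5 and 66.1 CPM in the construct strain, 85.5, 99.0 and 90.7 CPM in the deletion strain and 79.4, 86.3 and 81.1 CPM in the wild type. Its construct libraries were all below its deletion libraries, and replicate 2 of the construct strain overlapped the wild type. RPL29 was not called, at −0.28 ± 0.09 with an adjusted p of 0.106 in that edgeR test.

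RPL22B had the lowest log2 fold change of the 58 genes in this comparison. Rpl22 is known in yeast to bind the intron of the RPL22B transcript and to hold back its splicing. RPL22B had 175, 121 and 185 CPM in the construct strain, 208, 231 and 219 CPM in the deletion strain and 200.2, 183 and 192 CPM in the wild type. All construct libraries lay below all deletion libraries, and replicate 2 was lowest by far. RPL22A, the paralog that lies across an opposite-strand reading frame, had 14.3, 12.2 and 12.6 CPM in the construct strain, 15.4, 12.6 and 13.4 in the deletion strain and 10.6, 12.5 and 14.6 in the wild type, and these groups overlapped.

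The number of genes called lower was 0 without deletion replicate 2 or deletion replicate 3 (background 1.9% and 2.11%), 12 without construct replicate 1, 5 without construct replicate 2 and 4 without construct replicate 3, and it was 0 in a fit of these groups alone (background 2.07%). RPL23B and RPL27A were among those called in each of the fits without 1 construct library. The 12 genes without construct replicate 1 (background 4.43%) included RPL1A, RPL1B, RPL14B and RPL16A, at −0.22 ± 0.04, −0.26 ± 0.04, −0.29 ± 0.05 and −0.24 ± 0.04. The 5 genes without construct replicate 2 (background 6.81%) added RPL22B, RPL28 and RPL29, at −0.28 ± 0.06, −0.42 ± 0.08 and −0.38 ± 0.07 as log2 fold changes, with adjusted p of 0.0179, 0.00771 and 0.00908 in edgeR's quasi-likelihood test. The 4 without construct replicate 3 (background 5.66%) added RPL22B and RPL7B.

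Between the construct strain and the wild type 0 of the 58 genes were called by edgeR's quasi-likelihood test and 0 by DESeq2, where 0.184% and 1.23% of all features were called in either direction. An unadjusted p under 0.05 was found for 0 genes (6.05% of all features higher and 6.75% lower). The log2 fold changes ran between −0.26 and 0.13 with a median of −0.02, and 41 of 58 were below 0. The median was −0.09 without construct replicate 1 and 0.030 without construct replicate 2, on the other side of 0. The lowest p belonged to RPL18B, at −0.16 ± 0.07 (SE) with an adjusted p of 0.397, RPL22B, at −0.26 ± 0.13 with 0.425, and RPL28, at −0.17 ± 0.09 with 0.442, as adjusted p of that edgeR test. RPL29 was at 0.10 ± 0.09, RPL27A at −0.02 ± 0.08 and RPL23B at −0.07 ± 0.06. In 1 gene, RPL32, all construct libraries were above all wild-type libraries (background 7.81%), with 2850.3, 2598 and 2611 CPM in the construct strain, 2713, 2871 and 2780.2 CPM in the deletion strain and 2550.0, 2596 and 2508 CPM in the wild type, and in 0 genes all were below (background 8.58%). Without construct replicate 1, RPL18B alone was called lower (background 0.666%). A test that misses its threshold in libraries of this spread does not show equal levels.

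The 3 construct libraries differed more among themselves than those of the other strains. Replicate 1 was the highest of the construct libraries in 52 of the 58 genes (89.7%) and the lowest in 0, where it was highest in 28.8% of all features. Replicate 2 was the lowest in 44 genes (75.9%), where it was lowest in 31.9% of all features. Over the counts of all features, the chi-square per degree of freedom was 25.0 between construct replicates 1 and 2, 51.9 between 1 and 3 and 64.05 between 2 and 3. Relative to the wild-type mean, the median log2 value of the 58 genes was 0.11, −0.14 and −0.05 in the 3 construct libraries and 0.09, 0.05 and 0.08 in the 3 deletion libraries. Construct replicate 1 thus lay above the 3 deletion libraries by this median, and the other construct libraries below them. The medians of the small subunit genes were 0.10, −0.08 and −0.03 in the construct libraries and 0.11, 0.11 and 0.10 in the deletion libraries, and those of the other large subunit genes 0.16, 0.013 and −0.021 in the construct libraries and 0.14, 0.08 and 0.09 in the deletion libraries.

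Single genes deviated much further in construct replicate 2. RPL8A, for a protein needed in the processing of ribosomal RNA, had 1332, 695 and 1236 CPM in the construct strain, 1397, 1312 and 1335 CPM in the deletion strain and 1241, 1279 and 1224 CPM in the wild type, so that replicate 2 was at 0.541 of the mean of the other construct libraries. RPL9B had 957, 561 and 932 CPM in the construct strain, 1007, 1038 and 1025 CPM in the deletion strain and 867, 887 and 913 CPM in the wild type, a ratio of 0.594. In RPL7B the ratio was 0.647 and in RPL22B 0.673, with 216, 145 and 231 CPM for RPL7B in the construct strain. In each of these 4 genes the 6 deletion and wild-type libraries lay above construct replicate 2. The log2 fold change from the deletion strain was −0.31 ± 0.18 (SE) for RPL8A, −0.33 ± 0.16 for RPL9B and −0.29 ± 0.14 for RPL7B with all libraries, and −0.07, −0.12 and −0.11 without construct replicate 2. The paralogs were closer to the other construct libraries, with ratios of 0.936 for RPL8B, 0.947 for RPL9A, 0.883 for RPL7A and 0.909 for RPL22A.

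The same library was higher than the mean of the others in 5 genes, RPL29 (ratio 1.23), RPL28 (1.21), RPL27A (1.13), RPL23B (1.04) and RPL15B (1.04). Among genes for regulators, HMO1, which encodes a high mobility group protein found at ribosomal protein genes, had 306, 129 and 255 CPM in the construct strain, 239, 253 and 244 CPM in the deletion strain and 261, 231 and 229 CPM in the wild type. HMO1 was singled out after its values were seen, and its part in the values of the 58 genes was not tested.

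**Figure D4:**
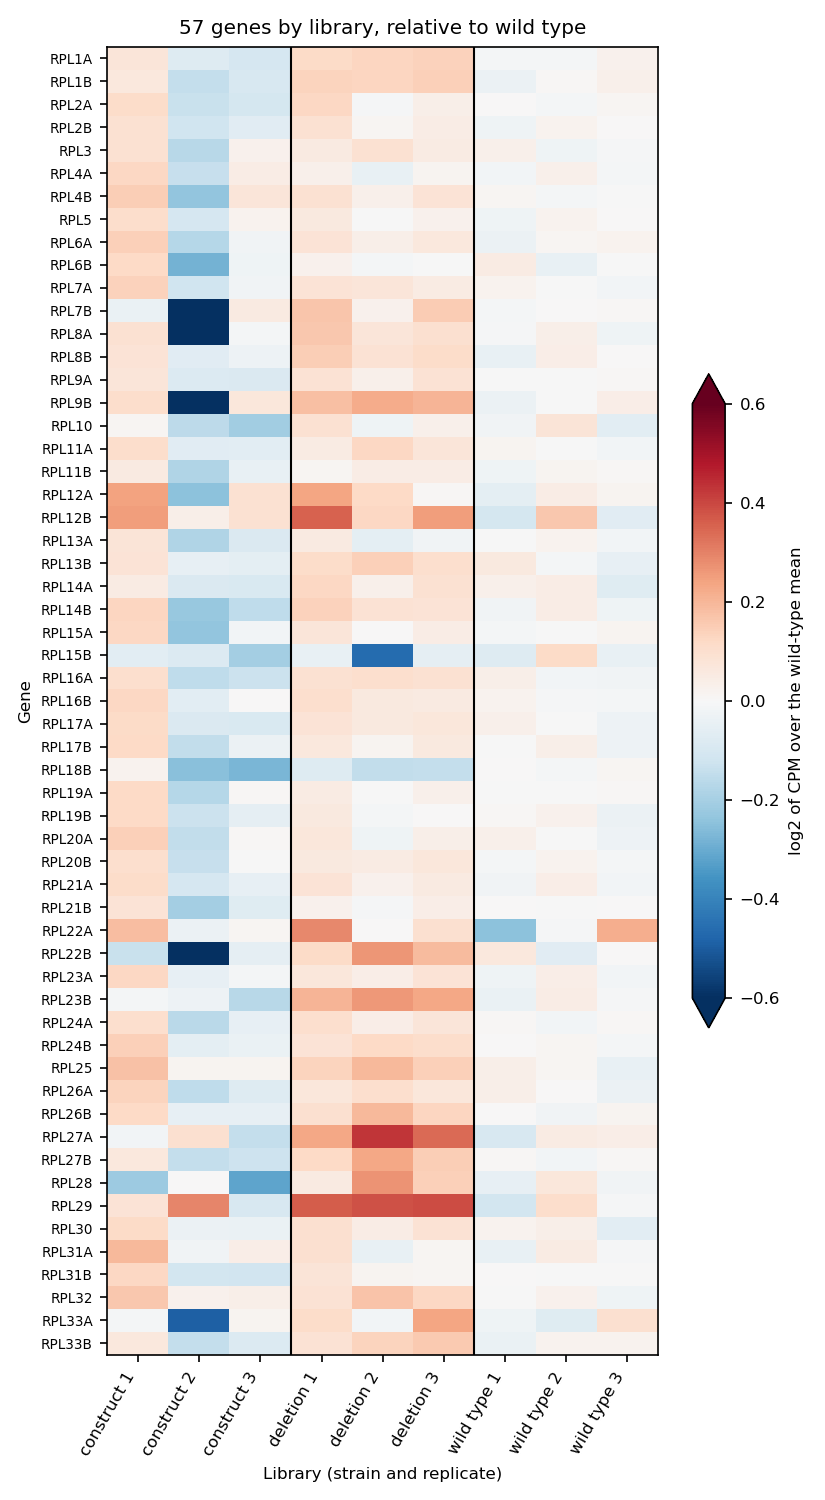
Log2 of CPM over the wild-type mean for 57 of the 58 genes (rows) in the 9 libraries (columns, construct strain at the left, then deletion strain and wild type), with red above and blue below the wild-type mean and the colour scale ending at −0.6 and 0.6. The deletion columns are mostly pale red, and construct replicate 2 is dark blue at RPL7B, RPL8A, RPL9B and RPL22B and red at RPL29.

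Paralogs of a family make nearly the same protein. Paralog A held the larger share in 14 of the 25 families and paralog B in 11, and the share of A varied by less than 3 percentage points over the 9 libraries in 14 families. Where 1 paralog holds nearly all counts, as in RPL15 and RPL33, a share can move by few points whatever the ratio does. The most unequal families were RPL15, with 98.7, 98.4 and 98.7% in the construct strain, 98.7, 99.0 and 98.7% in the deletion strain and 98.6, 98.5 and 98.6% in the wild type of the counts on RPL15A, RPL33, with 1.61, 1.339 and 1.82% in the construct strain, 1.72, 1.53 and 1.79% in the deletion strain and 1.71, 1.59 and 1.78% in the wild type on RPL33A, and RPL22, with 7.55, 9.19 and 6.41% in the construct strain, 6.88, 5.18 and 5.78% in the deletion strain and 5.03, 6.40 and 7.05% in the wild type on RPL22A. In RPL33 and RPL22 the minor paralog is the one across an opposite-strand reading frame.

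Log2 ratios of A to B within a library do not depend on scaling. They were compared by exact permutation tests over libraries, two-sided, in which 3 against 3 cannot give a p below 0.1. Differences given below are between group means of these log2 ratios. With 25 families tested in each of the 3 comparisons, 0 could therefore pass 0.05, before or after Benjamini-Hochberg adjustment. Where strains do not differ, ratios without overlap in either direction arise at a rate of 0.1 per family. The counts of such families below were not tested against that rate. Between the deletion strain and the wild type the ratios did not overlap in 6 families, 3 higher (RPL15 and RPL27 among them) and 3 lower (RPL4, RPL9 and RPL23), each with an exact p of 0.1, the smallest possible. The share of RPL23A was 44.7, 42.1 and 45.0% in the construct strain and 40.1, 38.7 and 39.8% in the deletion strain. In the wild type it was 42.6, 42.3 and 42.2%. The log2 ratio of RPL23A to RPL23B in the deletion strain differed by −0.17 from the wild type. The share of RPL27A was 73.4, 77.5 and 74.2% in the construct strain and 75.9, 77.0 and 77.0% in the deletion strain. In the wild type it was 73.1, 75.4 and 74.9%. The log2 ratio of RPL27A to RPL27B in the deletion strain differed by 0.17 from the wild type.

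Between the construct strain and the deletion strain the log2 ratio was higher without overlap in RPL4, RPL23 (by 0.26) and RPL31 (0.12). It was lower in RPL16 (−0.10), with an exact permutation p of 0.1 in each of these families. Between the construct strain and the wild type it was higher in 2 families, RPL31 (0.10) among them, and lower in 1, RPL16 (−0.08), again at 0.1 in the exact test. Other mean differences in log2 ratio came with overlapping groups. They were 0.40 in RPL22, 0.27 in RPL9 and 0.25 in RPL7 against the deletion strain. Against the wild type they were 0.35 in RPL22 and −0.25 in RPL8. In both RPL8 and RPL9 construct replicate 2 stood off, with a share of A of 78.5, 67.9 and 78.6% in the construct libraries for RPL8 and of 63.9, 73.0 and 61.9% for RPL9. In RPL4, as in RPL7, most windows are shared between the paralogs. With the counts of paralogs summed, RPL27 rose in the deletion strain against the wild type (0.29 ± 0.07, adjusted p = 0.025) and fell in the construct strain against the deletion strain (−0.32 ± 0.07, adjusted p = 0.0169), and RPL23 was not called (0.16 ± 0.05, adjusted p = 0.097, and −0.19, adjusted p = 0.0647), all by edgeR's quasi-likelihood test.

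**Figure D5:**
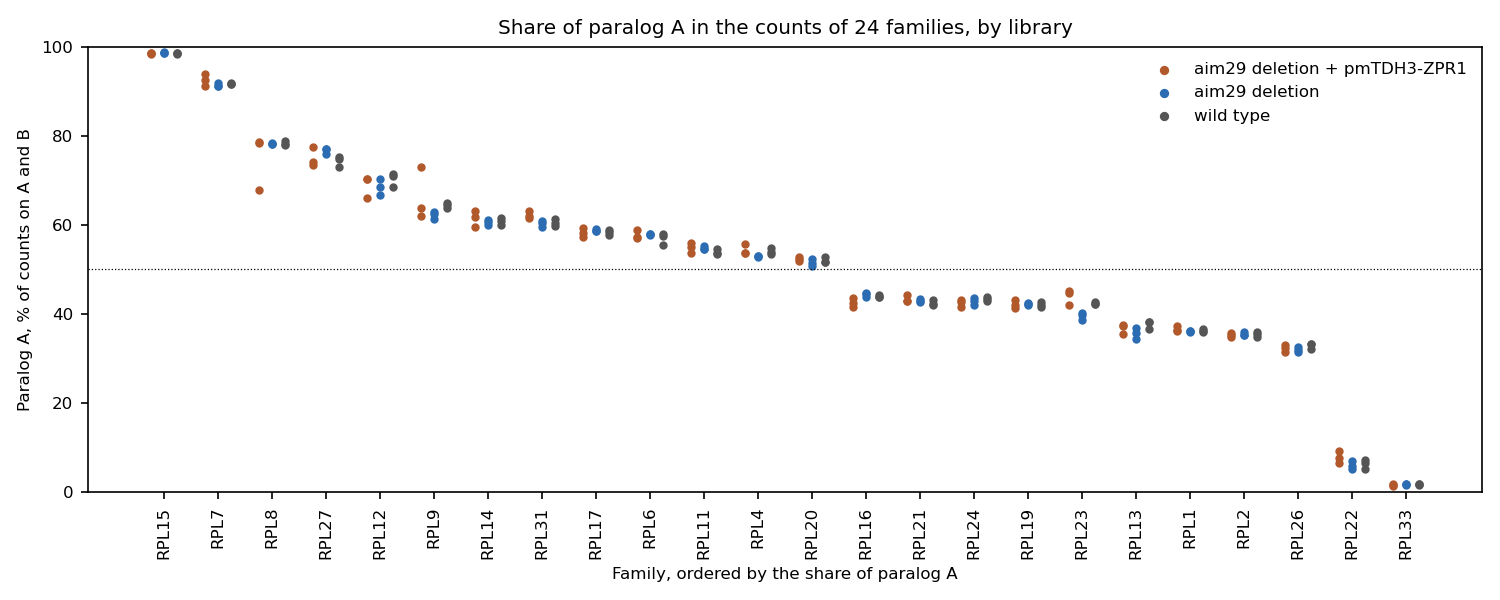
Percent of the counts of a family that fell on paralog A, in each library, for 24 of the 25 families with a pair of paralogs, with the construct strain left, the deletion strain in the middle and the wild type right within a family. In 13 of these families all libraries lie within 3 points, and single construct libraries stand off in RPL8 (67.9%) and RPL9 (73.0%).

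Further genes are given by the place of their products in the ribosome. Rpl5 and Rpl11 bind the 5S ribosomal RNA and enter the subunit with it. RPL5 had 4255, 3691 and 4011 CPM in the construct strain, 4116, 3948 and 4022 CPM in the deletion strain and 3890.1, 4013 and 3961 CPM in the wild type, with log2 fold changes of 0.03 ± 0.06 in the deletion strain against the wild type and −0.02 ± 0.06 in the construct strain against the deletion strain, and those of RPL11A were 0.08 ± 0.06 and −0.09 ± 0.06 and of RPL11B 0.03 ± 0.06 and −0.09 ± 0.06. RPL3, the most abundant by CPM, had 7473, 6242 and 7129 CPM in the construct strain, 7265, 7469.6 and 7259 CPM in the deletion strain and 7159, 6879.7 and 6985 CPM in the wild type and log2 fold changes of 0.07 ± 0.07 and −0.08 ± 0.07 in the same comparisons. Rpl10, which joins late and completes the site of peptide bond formation, had 353, 315 and 303 CPM in the construct strain, 373, 344 and 358 CPM in the deletion strain and 345, 369.9 and 335 CPM in the wild type in its gene RPL10, with 0.03 ± 0.07 and −0.15 ± 0.07.

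Around the peptide tunnel, RPL4A was at 0.00 ± 0.07 and 0.01 ± 0.07, RPL4B at 0.07 ± 0.08 and −0.06 ± 0.08, RPL17A at 0.07 ± 0.06 and −0.09 ± 0.06 and RPL17B at 0.05 ± 0.07 and −0.06 ± 0.07, as log2 fold changes of the deletion strain from the wild type and of the construct strain from the deletion strain. The tunnel exit gene RPL25 had 2043, 1830.2 and 1834 CPM in the construct strain, 1989, 2070.5 and 2000.4 CPM in the deletion strain and 1855, 1823 and 1753 CPM in the wild type, and its construct and deletion libraries overlapped. Rpl1 forms the mobile stalk beside the site where tRNA leaves, and its genes RPL1A and RPL1B lay at 0.13 ± 0.05 and 0.14 ± 0.06 and then at −0.16 ± 0.05 and −0.19 ± 0.06, with adjusted p of 0.204 and 0.214 in the first comparison and 0.119 and 0.094 in the second by edgeR's quasi-likelihood test. In this pair 19.0% of the windows were unique, so the separate values are uncertain. Rpl30 is known to bind its own transcript and block its splicing, and RPL30 had 1889, 1705 and 1697 CPM in the construct strain, 1864, 1802 and 1852 CPM in the deletion strain and 1772, 1789.9 and 1673 CPM in the wild type, with 0.08 ± 0.06 and −0.06 ± 0.06.

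Of 23 other large subunit genes 3 rose and 0 fell in the deletion strain against the wild type (median log2 fold change 0.10), and 0 rose and 1 fell in the construct strain against the deletion strain (median −0.06). Of 57 small subunit genes 7 rose and 0 fell (median 0.10) and 0 rose and 6 fell (median −0.10) in these comparisons, and 0 of either list were called between the construct strain and the wild type by edgeR's quasi-likelihood test. These counts stand beside 3 and 0 and 0 and 2 among the 58 genes. Of all features 4.24% rose and 2.16% fell in the first comparison, and 1.66% rose and 3.72% fell in the second. Between the construct strain and the wild type 0.184% were called in either direction. At an unadjusted p under 0.05, 10 of the 58 genes, 7 of the 23 and 24 of the 57 were higher in the deletion strain against the wild type. In the construct strain against the deletion strain 13, 5 and 21 were lower. Of all features 11.7% were higher in the first of these comparisons and 11.7% lower in the second. Between the construct strain and the wild type 17 of the 58, 20 of the 23 and 27 of the 57 log2 fold changes were above 0. Of all 5970 features 3108 were. A difference between the lists was not tested.

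Of 8 genes for chaperones and assembly partners of these proteins (RRB1, ACL4, SYO1, SQT1, BCP1, RLP7, RLP24 and NMD3), 1 was called. It was lower in the deletion strain against the wild type, where 2.16% of all features were called lower. RLP24, whose product holds the place of Rpl24 in the precursor of the subunit, had 299.6, 290.1 and 262 CPM in the construct strain, 289.9, 268 and 283 CPM in the deletion strain and 334, 321 and 338 CPM in the wild type. Every deletion library was below every wild-type library, with a log2 fold change of −0.24 ± 0.06 (SE) and an adjusted p of 0.0417 by edgeR's quasi-likelihood test (Benjamini-Hochberg adjusted). All 8 genes had values below 0 in the deletion strain against the wild type (median −0.12) and in the construct strain against the wild type (median −0.20). In the latter comparison 0 were called (background 0.184%) and 3 were lower at an unadjusted p under 0.05 (edgeR, background 6.75%). RPL24A and RPL24B, for the protein that takes the place of Rlp24, lay at 0.07 ± 0.06 and 0.10 ± 0.06 in the deletion strain. Of 8 regulator genes (RAP1, FHL1, IFH1, CRF1, SFP1, HMO1, SCH9 and YAK1) 0 were called in any of the 3 comparisons by edgeR's quasi-likelihood test. Of all features 6.4% were called in the deletion strain against the wild type, 5.38% in the construct strain against the deletion strain and 0.184% against the wild type. The lowest p were those of SFP1, an activator, at 0.14 ± 0.05 (adjusted p = 0.127, edgeR) in the deletion strain against the wild type, and IFH1, at −0.17 ± 0.06 (adjusted p = 0.12, edgeR) in the construct strain against the deletion strain.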

How the data were processed

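RNA-seq of poly(A) RNA was analysed from 9 libraries, 3 per strain, grouped by the genotype in the labels. The deposited table holds raw counts per annotated feature, not normalised by the authors. The submitters' processing notes name FastQC 0.11.5, STAR 2.7.0, DESeq2 1.34.0 and the build R64. Which tool counted the reads, with which strand setting and which treatment of reads with several matches, is not given in the sources used here. The members and gene lists were chosen with earlier results of these data known.

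Counts were analysed in R 4.3.3 with edgeR 4.0.16 (filterByExpr, TMM factors, glmQLFit and glmQLFTest on all 9 libraries, group as the only term, 6 residual degrees of freedom). Of 7127 features, 5970 passed the filter and 393 had no count in any library. P-values were adjusted over all features tested by Benjamini-Hochberg at a threshold of 0.05. SE is the log2 fold change divided by the square root of the F statistic. DESeq2 1.42.0 and limma 3.58.1 (voom, also with quality weights per group) served as alternatives, together with other factors and filters, replicate terms, summed paralogs and leaving out libraries. The procedure was tested on simulated data whose changes were larger than those of the genes called here. That test does not show how well changes of the size seen here are found. The chi-square per degree of freedom between replicates was between 2.89 and 64.0, so every library was kept as a separate sample.

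Features were matched to the R64 annotation with Python 3.11.15 and Biopython 1.88, 6035 by locus tag and 41 by symbol, and 1051 were not matched and have no position here. Unique windows were 50 bases, opposite reading frames at least 80 codons, and motif searches covered 500 bases before the start codon. Paralog ratios were taken as log2 values with a pseudocount of 0.5. Named genes were those called and their paralogs, single-copy members, the 3 lowest p and 3 largest fold changes of each comparison, the 3 highest and lowest levels, and the 3 families with the largest ratio differences or most unequal shares. Further genes are named by role or where a count of 5 or fewer calls for it, with values already seen. The values of 1 gene of the 58 and of its family are not reported here and not drawn, though both enter the fits and counts.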

Additional observations from a re-analysis of the deposited data

How the results depend on the processing

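The number of the 58 genes called higher in the deletion strain against the wild type, 3, was 0 without composition factors (background 3.13%), 0 at an adjusted p under 0.01 (background 2.06%), 21 in a fit of these groups alone (background 14.1%) and 15 with limma-voom and group quality weights, an alternative chosen after seeing the data (background 12.7%). The number lower was 1 in each of the last pair of fits, and without composition factors the median log2 fold change was 0.021. Leaving out each library in turn gave between 0 and 5 genes higher (background between 2.03% and 9.6%). The number lower in the construct strain against the deletion strain, 2, was 5 by DESeq2 (background 5.25%) and 0 in a fit of these groups alone (2.07%). With paralogs summed the unit is the family, and 1 of 33 families, RPL27, was lower (3.72%). The number of genes lower was 1 at an adjusted p under 0.01 (1.89%) and between 0 and 12 without 1 library (between 1.9% and 6.81%). Against the wild type it was between 0 and 1 without 1 library (background between 0.0166% and 0.666%). The causes were not tested, except that a stricter threshold can only lower a count. The other counts and medians, 174 of 198 values, stayed within 1.5 times the main count or within the spread. Of 1701 fold changes of the genes chosen by the naming rule above, not of all 58, 1631 kept their side of the threshold. Of the rest, 39 passed it only in the alternative and 31 only in the full fit. In this set 0 called genes changed sign, and 46 values that were not called lay on the other side of 0. Of 450 paralog ratio differences 45 did so, within the spread, as did 1 of 60 medians, that of the construct strain against the wild type without construct replicate 2 (0.030).

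With the replicate number as a block, 3 genes were higher in the deletion strain against the wild type (background 3.89%) and 3 lower in the construct strain against the deletion strain (background 3.45%), RPL28 added at an adjusted p of 0.0252 (edgeR's quasi-likelihood test). Against the wild type 0 were called (background 0.184%). Whether equal numbers pair the samples was not settled. Correlations of deviations between libraries of equal number lay between −0.15 and 0.15, and libraries of unequal number were not compared.

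Groups of 3 libraries limit the precision, and the larger spread of the construct libraries limits its comparisons. Counts on genes with shared or opposite-strand sequence remain uncertain.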
